A study of Arabidopsis thaliana with 24 samples.

Results

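The genes described here are 9 Arabidopsis genes of rapid stress and touch responses, chosen by locus from 33977 gene identifiers in the count tables. They are the CAF1 deadenylases *CAF1a* (AT3G44260) and *CAF1b* (AT5G22250), the zinc finger genes *ZAT5* (AT2G28200), *ZAT6* (AT5G04340), *ZAT10* (AT1G27730), *ZAT11* (AT2G37430) and *ZAT12* (AT5G59820), and the touch genes *TCH2* (AT5G37770) and *TCH3* (AT2G41100). *CAF1a* was picked because its root response to warmth turned round in *hy5-215*, so its root levels and root fold changes are given as a description, without a test. The libraries came from *hy5-215*, a mutant of the light-signalling bZIP factor HY5, and from its wild type Col-0. Light-grown seedlings were moved to 28 °C or kept at 22 °C for 4 h under continuous white light, and shoot and root were collected separately. Each combination of tissue, genotype and temperature had 3 replicate libraries, which gives 8 groups and 24 libraries. The labels give an age of 5 days, whereas the study's methods and design text differ from each other and from the labels on age and time. The labels call the upper tissue hypocotyl, and the study describes it as the shoot, with cotyledons. Genotypes were read from sample titles, because the genotype field of the labels calls all shoots wild type and all roots mutant.

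CAF1 proteins are catalytic subunits of the CCR4-NOT complex, which shortens the poly(A) tails of mRNAs and so starts their decay. The ZAT genes of this group encode C2H2 zinc finger proteins, several of which are known as transcriptional repressors that are induced quickly by cold, salt, light stress, oxidative stress or wounding. *TCH2* and *TCH3* encode calmodulin-like calcium-binding proteins and were named for their rapid induction when a plant is touched. Transcripts of this kind are known to be short-lived and quickly induced. HY5 binds DNA elements with an ACGT core and promotes light-driven development.

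Reads were counted per gene from 3′Tag-Seq libraries, which read the 3′ end of each mRNA, so a level is a number of tags and needs no correction for gene length. Levels below are TMM-normalised CPM, which is counts scaled to a common library size, with the SD over 3 libraries. Library totals were between 1212281 and 3781032 counts. The lowest depths were those of the Col-0 root at 22 °C, at 1212281 to 1828946. All 9 genes were found in the tables, and 8 of them had counts in all 24 libraries. *ZAT11* had counts in 20. *HY5* itself averaged 12.5 ± 3.75 CPM in the *hy5-215* shoot and 17.9 ± 3.34 CPM in the Col-0 shoot at 28 °C, and 21.5 ± 3.33 and 30.1 ± 4.39 CPM at 22 °C. In the root it averaged 9.37 ± 1.22 CPM in *hy5-215* and 48.7 ± 4.16 CPM in Col-0 at 28 °C, and 13.6 ± 3.56 and 52.2 ± 9.79 CPM at 22 °C. Library ranges of *HY5* overlapped between the genotypes in the shoot and were apart in the root, and the mutant transcript was still counted. The summed level of 5 photosynthesis genes used as shoot markers was 31917 to 61671 CPM in shoot libraries and 308 to 769 CPM in root libraries. The summed level of 5 root markers was 5199 to 7264 CPM in root libraries and 1288 to 2254 CPM in shoot libraries. In bulk tissue, fewer cells of a type and less RNA per cell cannot be told apart.

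The 250 bases upstream of the annotated start of the 8 members other than *CAF1a* were read from the TAIR10.1 RefSeq genome and searched on both strands for ACGT, the G-box CACGTG, the rapid stress response element CGCGTT and the W-box core TTGAC. Upstream regions of 3 of the 8 are printed because they carry the main contrasts: *ZAT10* and *ZAT12*, whose levels followed *CAF1a* most closely among the members, and *TCH2*, the only one of the 8 with the rapid stress response element. All run 5′ to 3′ along the gene's strand and end at the base before the start. Capitals mark matches to ACGT or CGCGTT, where a CGCGTT match includes its reverse complement.
ZAT10, chr1:9649324-9649573, minus strand: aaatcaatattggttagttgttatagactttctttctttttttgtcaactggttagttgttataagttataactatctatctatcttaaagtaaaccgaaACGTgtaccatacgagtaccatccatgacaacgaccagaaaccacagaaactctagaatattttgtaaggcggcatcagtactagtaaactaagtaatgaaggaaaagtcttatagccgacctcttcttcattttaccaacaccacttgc
ZAT12, chr5:24102564-24102813, plus strand: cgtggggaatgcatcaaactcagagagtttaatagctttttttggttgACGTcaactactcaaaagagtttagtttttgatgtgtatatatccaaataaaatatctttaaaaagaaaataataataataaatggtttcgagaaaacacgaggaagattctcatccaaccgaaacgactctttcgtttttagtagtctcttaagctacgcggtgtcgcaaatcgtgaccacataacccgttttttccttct
TCH2, chr5:14999620-14999869, minus strand: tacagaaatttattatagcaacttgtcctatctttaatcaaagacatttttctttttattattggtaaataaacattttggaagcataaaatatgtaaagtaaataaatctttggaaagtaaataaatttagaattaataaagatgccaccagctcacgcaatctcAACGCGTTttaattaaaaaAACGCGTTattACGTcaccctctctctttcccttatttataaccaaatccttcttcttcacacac
ACGT was present upstream of 7 of the 8 genes, all but *ZAT11*, against 44.1% of 27443 upstream regions of the same length. None of the 8 held the G-box, which includes ACGT and which 6.49% of all regions held. The W-box core, bound by WRKY factors, was present in 4 of 8 members and in 44.9% of all regions. CGCGTT was present in 2.59% of all regions. *TCH2* held 4 matches to it, starting 84, 82, 65 and 63 bases before the start. They lie in 2 copies of the palindrome AACGCGTT, each of which gives an overlapping match on either strand. A match is a description of letters and not of binding, and a missing match says only that the letters are not in this window.

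*CAF1a*, the more highly counted of the CAF1 pair (chromosome 3, 15952008 to 15953346, 1 exon), fell in the shoot of both genotypes at 28 °C. The *hy5-215* shoot libraries held 27.2, 41.3 and 67.7 CPM at 28 °C and 171, 151 and 129 CPM at 22 °C. Those of Col-0 held 16.8, 23.9 and 32.0 CPM at 28 °C and 199, 190 and 195 CPM at 22 °C. The temperatures did not overlap in either genotype. The log2 fold change was -1.69 ± 0.18 (SE) in *hy5-215* (edgeR adjusted p = 5.23e-07) and -2.96 ± 0.14 in Col-0 (adjusted p = 6.66e-14), which is a 3.23-fold and a 7.76-fold decrease.

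In the root, *CAF1a* was low at 28 °C and high at 22 °C in Col-0, and the order was the opposite in *hy5-215*. The *hy5-215* root libraries held 9.64, 7.17 and 12.5 CPM at 28 °C and 3.68, 2.76 and 4.85 CPM at 22 °C, from 28 to 37 and from 10 to 14 counts. The Col-0 root libraries held 2.29, 6.49 and 8.98 CPM at 28 °C and 43.1, 44.4 and 56.5 CPM at 22 °C. The fitted log2 fold changes were 1.37 in *hy5-215* and -2.99 in Col-0, and their difference was 4.37. At 22 °C the mutant root was 12.83-fold below the Col-0 root, whereas at 28 °C it was 1.61-fold above it and the libraries overlapped. Most of the contrast thus lay in the Col-0 root at 22 °C, whose mean of 48.0 ± 7.37 CPM compared with 3.76 to 9.78 CPM in the other root groups. No test is given because *CAF1a* was chosen on these values. Over the 8 groups its mean level ran from 195 CPM in the Col-0 shoot at 22 °C, through the *hy5-215* shoot at 22 °C (150 CPM), the Col-0 root at 22 °C, the *hy5-215* shoot at 28 °C (45.4 CPM), the Col-0 shoot at 28 °C (24.3 CPM), the *hy5-215* root at 28 °C and the Col-0 root at 28 °C (5.92 CPM), to the *hy5-215* root at 22 °C. Library ranges of neighbours in this order were apart between the first and the second, between the second and the third, and between the fifth and the sixth groups, and overlapped elsewhere.

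*CAF1b* (chromosome 5, 7365477 to 7366799, 1 exon) was counted below *CAF1a* in every shoot library, and its calls rest on few counts. The *hy5-215* root libraries held 5.47, 5.38 and 8.34 CPM at 28 °C and 0.736, 3.04 and 0.692 CPM at 22 °C, from 21 to 22 and from 2 to 11 counts. It rose there by 1.95 ± 0.48 on the log2 scale (edgeR adjusted p = 0.0111), having reached the count filter only through the 28 °C libraries. The Col-0 root libraries held 2.95, 4.02 and 4.34 CPM at 28 °C and 6.88, 3.95 and 8.07 CPM at 22 °C, which overlapped (log2 fold change -0.71 ± 0.42, adjusted p = 0.376). The Col-0 shoot libraries held 2.73, 4.61 and 5.90 CPM at 28 °C and 11.8, 8.95 and 8.11 CPM at 22 °C. *CAF1b* fell there (log2 fold change -1.07 ± 0.34, adjusted p = 0.0227), while in the *hy5-215* shoot, at 3.40, 1.11 and 9.06 CPM at 28 °C and 7.07, 7.12 and 4.36 CPM at 22 °C, it did not pass (log2 fold change -0.49 ± 0.48, adjusted p = 0.551). The Col-0 shoot call was lost without replicate 1 or 2 at either temperature (adjusted p 0.0521 to 0.124) and in DESeq2 (adjusted p = 0.125). There the filter was reached through the 22 °C libraries, at 19 to 27 counts against 6 to 14 at 28 °C. The *hy5-215* root call was lost without replicate 1 or 3 at 28 °C (adjusted p 0.0505 and 0.0888).

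**Figure D1:**
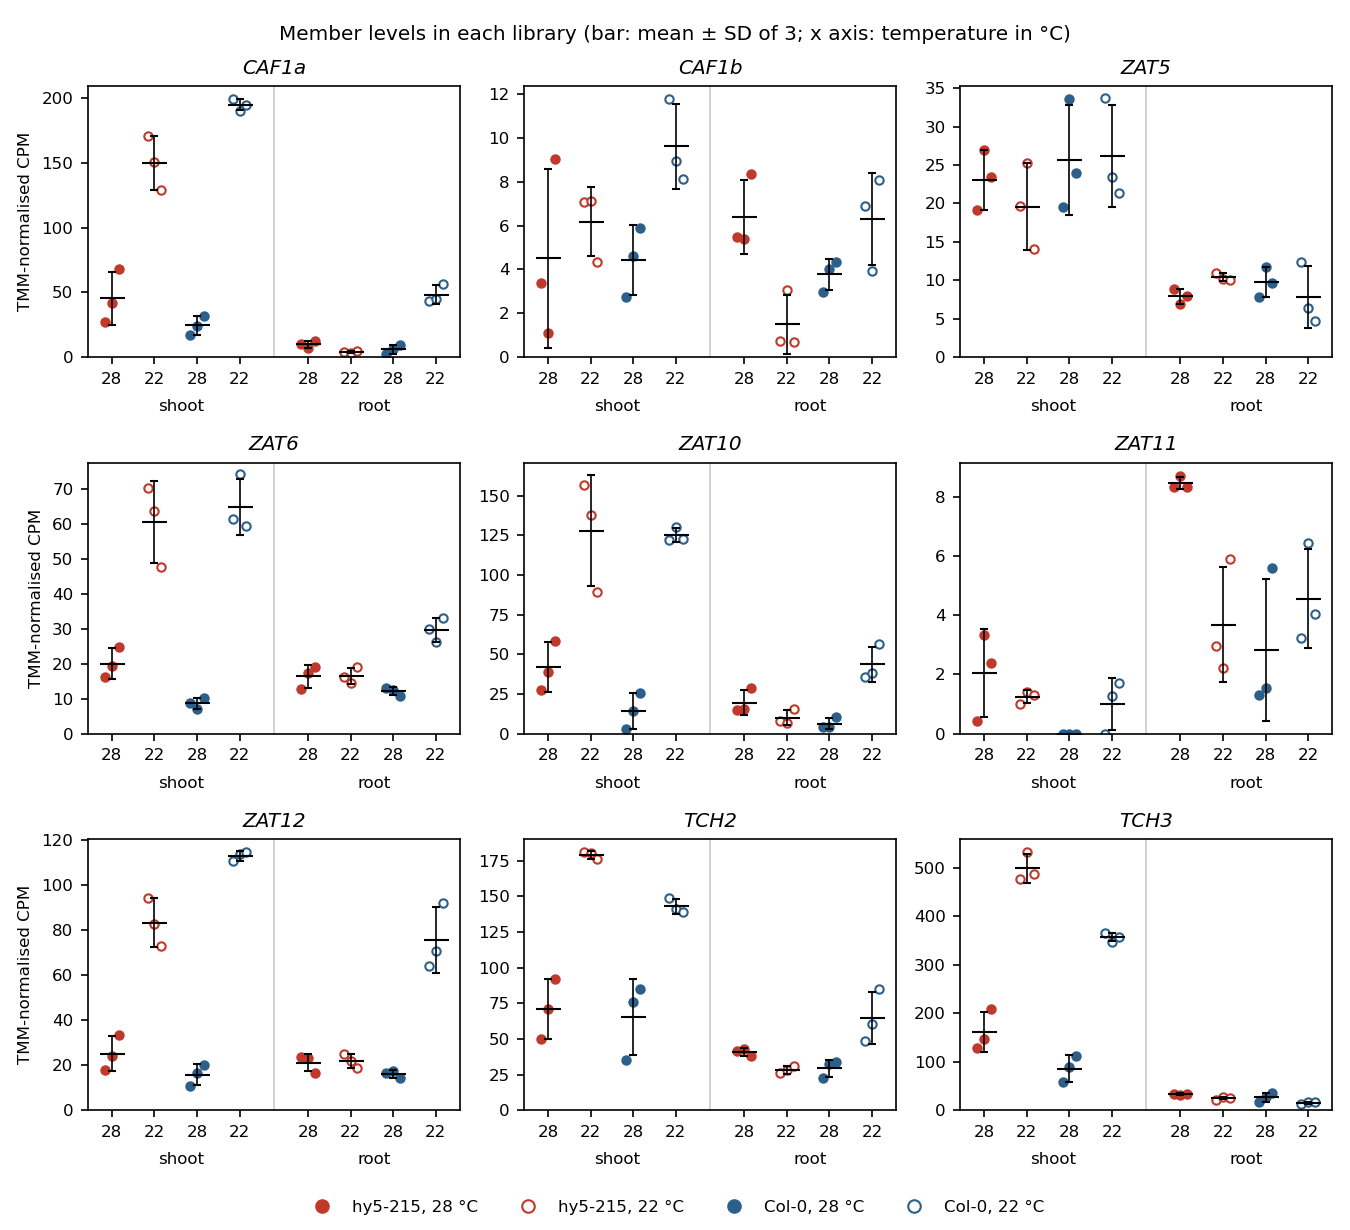
TMM-normalised CPM of the 9 genes in each library. Each panel is 1 gene, points are libraries (red *hy5-215*, blue Col-0, filled 28 °C, open 22 °C), and bars are the mean ± SD of 3 libraries. *CAF1a*, *ZAT10* and *ZAT12* have their highest root levels in Col-0 at 22 °C, at 43.1 to 56.5, 35.8 to 56.5 and 64.2 to 92.1 CPM.

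*ZAT10* (chromosome 1, 9648021 to 9649323), also named STZ for salt tolerance zinc finger, encodes a repressor induced by many stresses, and its root response also differed in sign between the genotypes. The *hy5-215* root libraries held 14.6, 15.4 and 28.8 CPM at 28 °C and 8.09, 6.63 and 15.2 CPM at 22 °C. Those of Col-0 held 4.26, 4.33 and 10.2 CPM at 28 °C and 35.8, 38.5 and 56.5 CPM at 22 °C. *ZAT10* thus fell in the Col-0 root, with no overlap (log2 fold change -2.77 ± 0.29, edgeR adjusted p = 5.88e-06). In the *hy5-215* root it was 1.93-fold higher at 28 °C, which passed the adjusted p (0.0356) but not the 2-fold limit, and the libraries overlapped. Without replicate 3 at 22 °C the change was 1.38 on the log2 scale and passed both (adjusted p = 0.00066). In the shoot the *hy5-215* libraries held 27.6, 39.1 and 58.6 CPM at 28 °C and 157, 138 and 89.4 CPM at 22 °C. Those of Col-0 held 3.18, 14.3 and 25.3 CPM at 28 °C and 122, 130 and 123 CPM at 22 °C. It fell 2.99-fold in the *hy5-215* shoot (adjusted p = 2.80e-06) and 8.38-fold in the Col-0 shoot (adjusted p = 2.87e-10).

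*ZAT12* (chromosome 5, 24102814 to 24103794), a factor of high light and cold responses, fell in the Col-0 root but was level in the *hy5-215* root. Root libraries of *hy5-215* held 23.7, 23.3 and 16.7 CPM at 28 °C and 25.0, 21.8 and 18.7 CPM at 22 °C, and the log2 fold change was -0.02 ± 0.19 (edgeR adjusted p = 0.974). The Col-0 root libraries held 16.4, 17.6 and 14.2 CPM at 28 °C and 64.2, 70.6 and 92.1 CPM at 22 °C, a 4.66-fold decrease with no overlap (adjusted p = 2.95e-07). Both shoots fell as well. The *hy5-215* shoot held 17.9, 24.0 and 33.4 CPM at 28 °C and 94.4, 82.9 and 72.8 CPM at 22 °C (log2 fold change -1.69 ± 0.17, adjusted p = 1.30e-07). The Col-0 shoot held 10.9, 16.4 and 20.2 CPM at 28 °C and 111, 114 and 115 CPM at 22 °C (log2 fold change -2.79 ± 0.15, adjusted p = 4.93e-13).

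*ZAT6* (chromosome 5, 1216058 to 1217362), a C2H2 factor linked to phosphate and stress responses, followed the same directions with a smaller root contrast. Root libraries of *hy5-215* held 12.8, 17.4 and 19.0 CPM at 28 °C and 16.2, 14.4 and 19.0 CPM at 22 °C, which overlapped throughout (log2 fold change -0.02 ± 0.22, edgeR adjusted p = 0.977). In the Col-0 root it fell to 13.1, 12.4 and 10.8 CPM at 28 °C, against 29.8, 26.2 and 33.0 CPM at 22 °C (log2 fold change -1.29 ± 0.22, adjusted p = 0.000891). In the *hy5-215* shoot it fell to 16.2, 19.2 and 24.8 CPM at 28 °C, against 70.2, 63.7 and 47.5 CPM at 22 °C (log2 fold change -1.55 ± 0.18, adjusted p = 1.00e-06). The Col-0 shoot was lower still at 28 °C, at 8.63, 7.13 and 10.1 CPM, against 61.4, 74.1 and 59.3 CPM at 22 °C (log2 fold change -2.87 ± 0.19, adjusted p = 1.00e-11).

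*ZAT11* and *ZAT5* stood apart from the other fingers. *ZAT11* (chromosome 2, 15706285 to 15707224), a nuclear factor known to affect root growth when overexpressed, was a root transcript here. In shoots it had 0 to 9 counts per library, with 0 in all 3 Col-0 libraries at 28 °C, and it was not tested there. The *hy5-215* root libraries held 8.34, 8.71 and 8.34 CPM at 28 °C and 2.94, 2.21 and 5.88 CPM at 22 °C, which did not overlap. It rose there (log2 fold change 1.22 ± 0.37, edgeR adjusted p = 0.0398), but the call was lost without any 1 of the libraries other than replicate 3 at 22 °C (adjusted p 0.102 to 0.248) and in DESeq2 (adjusted p = 0.157). The count filter was reached only through the 28 °C libraries, at 22 to 34 counts against 8 to 17 at 22 °C. The Col-0 root libraries held 1.31, 1.55 and 5.58 CPM at 28 °C and 3.21, 6.42 and 4.03 CPM at 22 °C, which overlapped (adjusted p = 0.545). *ZAT5* (chromosome 2, 12023940 to 12025370) passed no test in any of the comparisons here. Its mean was 23.1 ± 3.92 and 19.6 ± 5.66 CPM in the *hy5-215* shoot at 28 and 22 °C and 25.7 ± 7.16 and 26.2 ± 6.64 CPM in the Col-0 shoot. In the root it was 7.91 ± 0.972 and 10.4 ± 0.533 CPM in *hy5-215* at 28 and 22 °C and 9.74 ± 1.95 and 7.84 ± 4.03 CPM in Col-0.

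*TCH2* (chromosome 5, 14997514 to 14999619), which encodes the calmodulin-like protein CML24, fell in both shoots and in the Col-0 root. The *hy5-215* shoot libraries held 50.2, 70.9 and 92 CPM at 28 °C and 181, 180 and 176 CPM at 22 °C (log2 fold change -1.29 ± 0.14, edgeR adjusted p = 5.11e-07). The Col-0 shoot libraries held 35.4, 75.5 and 85.2 CPM at 28 °C and 149, 141 and 139 CPM at 22 °C (log2 fold change -1.08 ± 0.17, adjusted p = 2.96e-05). No library of one temperature reached the other in either shoot, although without Col-0 replicate 1 at 28 °C the change was -0.78, under the 2-fold limit (adjusted p = 2.15e-08). The *hy5-215* root libraries held 41.7, 42.8 and 37.9 CPM at 28 °C and 25.8, 28.2 and 31.2 CPM at 22 °C, a 1.44-fold difference that passed the adjusted p (0.0372) but not the 2-fold limit. The Col-0 root fell to 22.6, 32.1 and 33.8 CPM at 28 °C, against 48.6, 60.7 and 84.7 CPM at 22 °C (log2 fold change -1.11 ± 0.20, adjusted p = 0.00192). This value went under the 2-fold limit without replicate 3 at 22 °C (-0.89, adjusted p = 0.00421) or replicate 1 at 28 °C (-0.96, adjusted p = 0.0111). *TCH2* shares 723 bases with AT5G37760 on the opposite strand, and whether counting used the strand was not stated.

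*TCH3* (chromosome 2, 17137037 to 17139700), a calmodulin-like gene with several calcium-binding domains, was the most highly counted member in the shoot and showed no such root pattern. The *hy5-215* shoot held 129, 147 and 208 CPM at 28 °C and 477, 533 and 487 CPM at 22 °C (log2 fold change -1.59 ± 0.12, edgeR adjusted p = 3.55e-09). The Col-0 shoot held 57.3, 88.9 and 112 CPM at 28 °C and 365, 347 and 358 CPM at 22 °C (log2 fold change -2.01 ± 0.14, adjusted p = 4.64e-11). It thus fell in both, and no libraries of the 2 temperatures overlapped. In the root the values lay in the other direction in both genotypes without passing the test. The *hy5-215* root held 33.6, 31.3 and 34.1 CPM at 28 °C and 22.1, 27.1 and 24.9 CPM at 22 °C (adjusted p = 0.155). The Col-0 root held 18, 26.6 and 35.6 CPM at 28 °C and 13.8, 16.3 and 17.5 CPM at 22 °C (adjusted p = 0.08). The libraries did not overlap in either. *TCH3* also overlaps opposite-strand genes, AT2G41105 by 827 bases and AT2G09220 by 342.

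**Figure D2:**
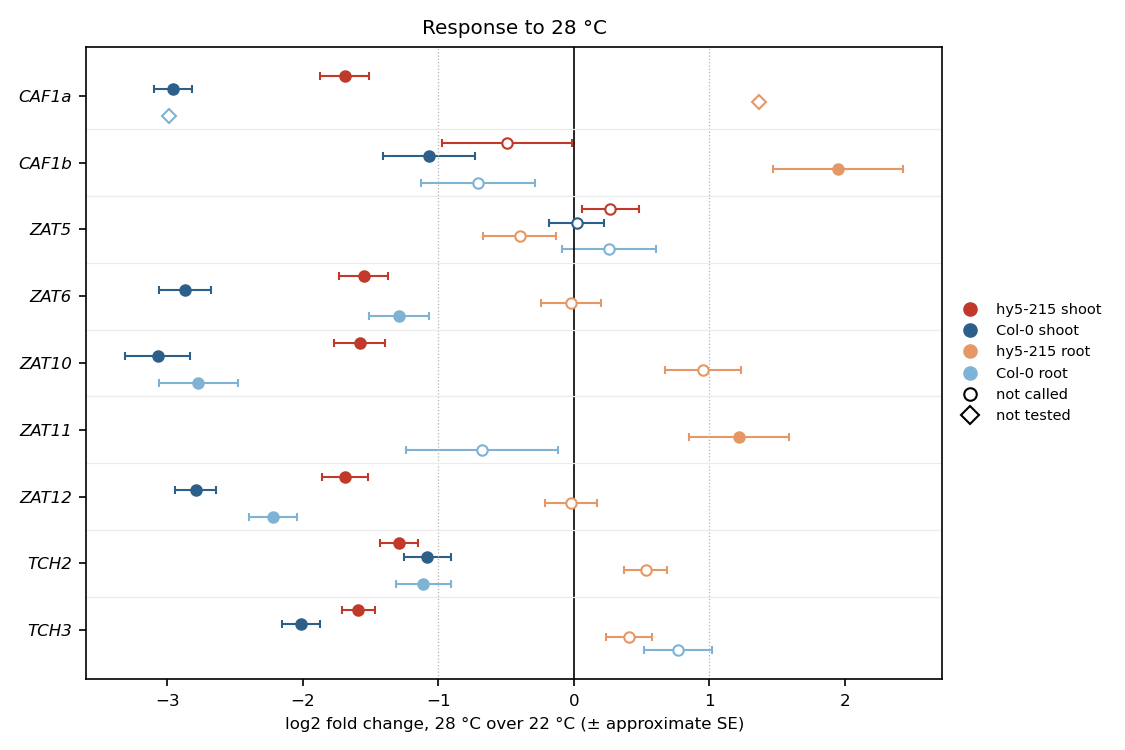
Fitted log2 fold change at 28 °C over 22 °C for each gene in the 4 combinations of tissue and genotype, with the approximate SE. Filled points passed both limits, open circles did not, and diamonds are the root values of *CAF1a*, which were not tested. Root values of *ZAT10* are 0.95 in *hy5-215* and -2.77 in Col-0, on opposite sides of 0.

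Counted over the members, 6 of 8 tested fell in the *hy5-215* shoot, where 3.59% of 15680 genes passed in either direction and 1.82% fell. In the Col-0 shoot 7 of 8 fell, where 5.31% of 15697 genes passed and 3.15% fell. DESeq2 called 6 there, without *CAF1b*, which reached the count filter through the 22 °C libraries. *ZAT5* was tested and did not pass in either shoot, and *CAF1b* did not pass in that of *hy5-215*. In the *hy5-215* root 2 of the 8 members other than *CAF1a* rose, *CAF1b* and *ZAT11*, where 1.73% of 16445 genes passed and 1.11% rose. Both reached the count filter only through the 28 °C libraries, where they were high, so this count is a description. DESeq2 called 1 of the 8, and leaving out 1 library gave 0 to 3. In the Col-0 root 4 of those 8 fell, *ZAT6*, *ZAT10*, *ZAT12* and *TCH2*, where 2.44% of 15743 genes passed and 1.49% fell.

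The difference between the genotypes' responses was tested directly as an interaction of genotype and temperature, without a fold limit. In the root it passed for 5 of the 8 members other than *CAF1a*, all with a higher value in *hy5-215*, while 1.41% of 16982 genes passed in either direction and 1.05% in this one. The difference in log2 fold change, *hy5-215* minus Col-0, was 3.74 ± 0.45 for *ZAT10* and 2.22 ± 0.27 for *ZAT12* (both edgeR adjusted p = 5.85e-06). It was 1.66 ± 0.26 for *TCH2* (adjusted p = 0.000167), 2.68 ± 0.67 for *CAF1b* (adjusted p = 0.0325) and 1.29 ± 0.31 for *ZAT6* (adjusted p = 0.0209). *ZAT11* (1.93 ± 0.68, adjusted p = 0.214), *ZAT5* (-0.63 ± 0.43, adjusted p = 0.674) and *TCH3* (-0.34 ± 0.30, adjusted p = 0.775) did not pass. The calls for *ZAT10*, *ZAT12* and *TCH2* held when any 1 of the 12 libraries was left out. That of *CAF1b* held only without Col-0 replicate 2 or *hy5-215* replicate 2 at 22 °C or Col-0 replicate 3 at 28 °C, and was lost without each of the other 9 (adjusted p 0.0601 to 0.119). That of *ZAT6* was lost without *hy5-215* replicate 2 at 22 °C, or without replicate 2 or 3 of either genotype at 28 °C (adjusted p 0.053 to 0.0859). *ZAT11* passed without Col-0 replicate 3 at 28 °C (adjusted p = 0.0289).

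In the shoot the fall was smaller in *hy5-215* than in Col-0 for 4 of 8 members, where 1.03% of 16429 genes passed the interaction and 0.566% in this direction. The difference was 1.25 ± 0.27 for *CAF1a* (edgeR adjusted p = 0.0154), 1.31 ± 0.28 for *ZAT6* (adjusted p = 0.0147), 1.48 ± 0.38 for *ZAT10* (adjusted p = 0.0447) and 1.08 ± 0.25 for *ZAT12* (adjusted p = 0.0246). Both touch genes missed the threshold, at -0.22 ± 0.25 for *TCH2* (adjusted p = 0.837) and 0.41 ± 0.21 for *TCH3* (adjusted p = 0.485). The shoot calls were close to the threshold. All 4 were lost without Col-0 replicate 2 at 28 °C (adjusted p 0.0608 for *CAF1a*, 0.0739 for *ZAT6*, 0.136 for *ZAT10*). *ZAT10* was lost in 9 of 12 such fits (adjusted p 0.0552 to 0.136), all but those without *hy5-215* replicate 1 at either temperature or Col-0 replicate 3 at 28 °C, and the difference ran from 1.04 without Col-0 replicate 1 to 2.18 without Col-0 replicate 3, both at 28 °C. *ZAT12* was lost in 6 of 12 (adjusted p 0.0518 to 0.0806), those without Col-0 replicate 2 or 3 or *hy5-215* replicate 3 at 22 °C, or without Col-0 replicate 2 or *hy5-215* replicate 2 or 3 at 28 °C. DESeq2 did not call *CAF1a* (adjusted p = 0.219) or *ZAT10* (adjusted p = 0.622) in the shoot.

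Set against Col-0 at a single temperature, the mutant root was lower in 3 members at 22 °C and higher in 2 at 28 °C, with *ZAT10* among both. At 22 °C 3 of 7 members tested other than *CAF1a* were lower in *hy5-215*, where 5.78% of 15628 genes passed and 2.89% were lower. *ZAT10* was 4.38-fold lower (edgeR adjusted p = 2.31e-06), *ZAT12* 3.46-fold (adjusted p = 7.34e-08) and *TCH2* 2.26-fold (adjusted p = 7.16e-05). *ZAT6* was 1.81-fold lower, which passed the adjusted p (0.00837) but not the 2-fold limit, and *CAF1b* was filtered out for low counts. *TCH2* went under the 2-fold limit without Col-0 replicate 3 at 22 °C, the library with the lowest total (log2 fold change -0.96, adjusted p = 0.00045). At 28 °C 2 of 8 were higher in *hy5-215*, where 4.84% of 16514 genes passed and 3.15% were higher. These were *ZAT10*, 3.04-fold (adjusted p = 0.000728), and *ZAT11*, 2.98-fold (adjusted p = 0.0104). The count filter was reached by *ZAT11* only through the *hy5-215* libraries, at 22 to 34 counts against 4 to 18 in Col-0. *ZAT11* was lost without Col-0 replicate 1 or 2 or *hy5-215* replicate 2 at 28 °C (adjusted p 0.0523 to 0.0787).

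In the shoot at 22 °C no member of 8 passed both limits, where 1.73% of 15548 genes did. In edgeR 6 of the 8 had an unadjusted p under 0.05, and DESeq2 called 0. *CAF1a* and *ZAT12* were 1.34-fold and 1.41-fold lower in *hy5-215* (edgeR adjusted p = 0.00119 and 0.00088), while *TCH2* and *TCH3* were 1.21-fold and 1.36-fold higher (adjusted p = 0.0355 and 6.02e-05). The deadenylase and the finger thus lay on the other side of Col-0 from the touch genes, by amounts under 2-fold. At 28 °C *ZAT6* was 2.25-fold higher in *hy5-215* (adjusted p = 0.00565) and *ZAT10* 2.80-fold (adjusted p = 0.0137), 2 of 8 members, where 1.82% of 15702 genes passed and 1.13% were higher. *TCH3* was 1.82-fold higher and passed the adjusted p (0.00703), and *CAF1a* was 1.80-fold higher and did not pass (adjusted p = 0.0606). Single libraries decided these 4 results. *ZAT6* was lost without Col-0 replicate 2 (adjusted p = 0.0505) or *hy5-215* replicate 3 (adjusted p = 0.0276, with the change just under the fold limit). *ZAT10* was lost without replicate 2 of either genotype or *hy5-215* replicate 3 (adjusted p 0.0625 to 0.0809) and in DESeq2 (adjusted p = 0.526). Its log2 fold change was 1.02 without Col-0 replicate 1 and 2.18 without Col-0 replicate 3, against 1.49 with all libraries. Without Col-0 replicate 3 or *hy5-215* replicate 1, *CAF1a* (adjusted p 0.0266 and 0.00674) and *TCH3* (adjusted p 0.000875 and 0.00343) passed both limits.

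**Figure D3:**
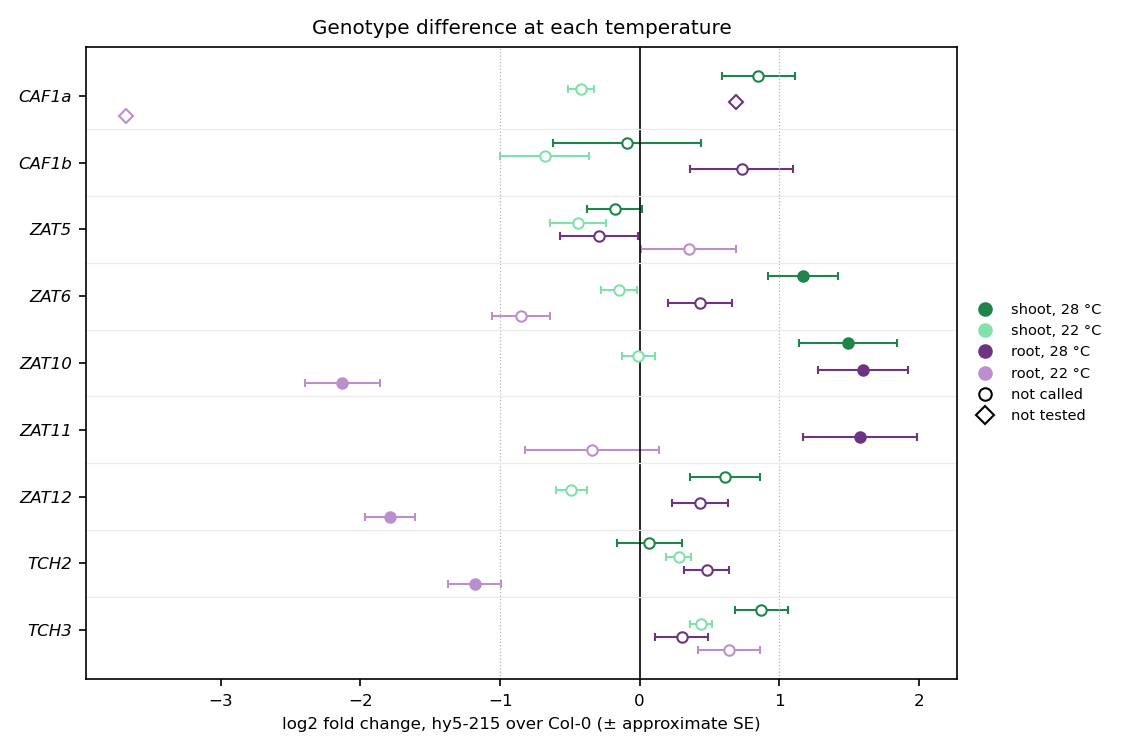
Fitted log2 fold change of *hy5-215* over Col-0 for each gene in shoot and root at each temperature, with the approximate SE. Filled points passed both limits, open circles did not, diamonds are *CAF1a* in the root, which was not tested. In the root *ZAT10* lies at 1.60 at 28 °C and at -2.13 at 22 °C.

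The tissues were compared through the interaction of tissue and temperature within each genotype, root minus shoot. In *hy5-215* it passed for 6 of the 8 members other than *CAF1a*, all with a higher value in the root, where 3.71% of 18160 genes passed and 2.4% in this direction. The difference was 2.56 ± 0.36 for *ZAT10* (edgeR adjusted p = 4.75e-06), 2.04 ± 0.21 for *TCH3* (adjusted p = 4.27e-09), 1.87 ± 0.21 for *TCH2* (adjusted p = 5.88e-08), 1.72 ± 0.26 for *ZAT12* (adjusted p = 1.54e-05) and 1.58 ± 0.28 for *ZAT6* (adjusted p = 0.000246). It was 2.46 ± 0.72 for *CAF1b* (adjusted p = 0.0419), a call that held without *hy5-215* shoot replicate 3 or root replicate 2 at 22 °C or shoot replicate 3 at 28 °C and was lost without each of the other 9 libraries (adjusted p 0.0634 to 0.153) and in DESeq2 (adjusted p = 0.108). In Col-0 it passed for 2 of 8, *TCH3* (2.77 ± 0.30, adjusted p = 1.42e-06) and *ZAT6* (1.58 ± 0.29, adjusted p = 0.00129), where 2.78% of 17916 genes passed and 1.13% in this direction. *ZAT10* (0.31 ± 0.48, adjusted p = 0.827), *ZAT12* (0.57 ± 0.26, adjusted p = 0.29) and *TCH2* (-0.03 ± 0.29, adjusted p = 0.983) did not pass. The value for *CAF1a*, with no test, was 3.09 in *hy5-215* and -0.03 in Col-0.

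Shoot marker RNA in the roots moved with the root levels of several members. The summed level of the 5 shoot markers was 308 to 599 CPM in the *hy5-215* root and 377 to 495 CPM in the Col-0 root at 28 °C, and 321 to 416 and 641 to 769 CPM at 22 °C, so that it was highest in the Col-0 root at 22 °C. None of the 5 was at 0 in any group. As a percent of the shoot of the same genotype and temperature, the markers in the Col-0 root at 22 °C stood at 1.71, whereas *CAF1a* stood at 24.7, *ZAT10* at 34.9, *TCH2* at 45.4, *ZAT12* at 66.8 and *TCH3* at 4.44. The other members stood at 29.9 (*ZAT5*), 45.7 (*ZAT6*), 65.4 (*CAF1b*) and 458 (*ZAT11*). Of the shoot markers, *LHCA3* and *RCA* passed both limits as lower in the *hy5-215* root than in Col-0 at 22 °C (log2 fold change -1.07 each). *RBCS1A* passed the interaction of genotype and temperature in the root (1.13). Whether shoot RNA in the root samples contributed to the member levels was not tested. The summed root markers, at 5926 to 6035 CPM in the *hy5-215* root and 5511 to 5625 CPM in the Col-0 root at 28 °C, were at 5199 to 5473 and 6699 to 7264 CPM at 22 °C. Single root markers went both ways. In the *hy5-215* root against Col-0, *TIP2;3* was higher (log2 fold change 2.10 at 22 °C and 1.05 at 28 °C). *RHS19* was lower (-1.37 and -1.13), and all 4 values passed both limits. The interaction of genotype and temperature in the root passed for *PYK10* (0.83) and *TIP2;3* (-1.04), in opposite directions.

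In 5 of the 8 groups, 1 library was the lowest or the highest for at least 7 of the members. In the *hy5-215* shoot at 28 °C, replicate 1 was lowest for 8 of the 9 members and replicate 3 highest for 7. In the Col-0 shoot at 28 °C, replicate 1 was lowest and replicate 3 highest for 7 each, and *ZAT10* ran there from 3.18 to 25.3 CPM. In the *hy5-215* shoot at 22 °C, replicate 3 was lowest for 7, and in the Col-0 root replicate 1 was lowest for 7 at 28 °C and replicate 3 highest for 7 at 22 °C. In the Col-0 shoot at 22 °C and the *hy5-215* root at both temperatures, no library was lowest for more than 4 or highest for more than 5. After subtracting each tissue's mean of log2(CPM + 1), Pearson's r with *CAF1a* over the 24 libraries was 0.92 for *ZAT12*, 0.91 for *ZAT10*, 0.90 for *TCH2*, 0.84 for *ZAT6*, 0.64 for *CAF1b*, 0.47 for *TCH3*, 0.37 for *ZAT11* and -0.26 for *ZAT5*. These values describe libraries that share groups, and the root response of *CAF1a* is among them.

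By the same measure, the 5 genes most like *CAF1a* were *BAP1* (r = 0.971), AT1G32920 (0.958), AT5G17350 (0.954), *ACS6* (0.944) and AT4G29780 (0.937), among 14155 genes. *BAP1* encodes a phospholipid-binding C2-domain protein and *ACS6* an enzyme of ethylene synthesis. *BAP1* averaged 6.70 ± 2.96 CPM at 28 °C and 2.64 ± 0.383 CPM at 22 °C in the *hy5-215* root, and 4.15 ± 2.63 and 22.8 ± 4.98 CPM in the Col-0 root. *ACS6* averaged 11.9 ± 1.30 and 8.85 ± 2.83 CPM in the *hy5-215* root, and 7.83 ± 2.50 and 39.9 ± 5.64 CPM in the Col-0 root. All 5 had their highest root mean in Col-0 at 22 °C, which choosing them by likeness to *CAF1a* over these same libraries made likely in advance.

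Related genes were described by list. Of 23 other CAF1 and CCR4-NOT genes, 17 were tested and 0 passed both limits in each of the 4 responses to 28 °C, with edgeR and with DESeq2. In edgeR 1, 3, 3 and 1 of them had an unadjusted p under 0.05 in the *hy5-215* shoot, the Col-0 shoot, the *hy5-215* root and the Col-0 root. Their median log2 fold change in the same order was -0.01, 0.08, 0.01 and 0.02, beside 0.01, 0.01, 0.00 and 0.01 for all genes. In the Col-0 shoot *CAF1a* fell, and no listed gene of the deadenylase complex passed both limits. *CAF1b* fell there too, but it reached the count filter through the 22 °C libraries. Its call was lost in DESeq2 (adjusted p = 0.125) and in an edgeR fit of all 24 libraries (adjusted p = 0.0875). Of 13 other ZAT and AZF fingers, only 3 were tested in either shoot, and 2 of them fell in both. These were *ZAT7* (log2 fold change -1.81 ± 0.28 in *hy5-215* and -3.73 ± 0.52 in Col-0) and AT3G46080 (-3.05 ± 0.35 and -2.41 ± 0.39). Both reached the count filter through the 22 °C libraries. In the Col-0 shoot *ZAT7* had 19 to 27 counts at 22 °C and 0 to 4 at 28 °C, and in *hy5-215* 38 to 58 and 7 to 18. AT3G46080 had 24 to 29 and 2 to 8 in Col-0, and 37 to 55 and 3 to 8 in *hy5-215*. In the roots 6 fingers of this list were tested in *hy5-215* and 4 in Col-0. With edgeR or DESeq2 0 passed, and 1 in each had an unadjusted edgeR p under 0.05. Of 22 calmodulins, calmodulin-like genes and *TCH4*, 3 of 15 tested fell in the *hy5-215* shoot and 4 of 16 in the Col-0 shoot, where 1.82% and 3.15% of all genes fell. The genes that fell included, in both shoots, *CML38* (-1.25 ± 0.25 and -2.25 ± 0.21), *CML23* (-1.18 ± 0.25 and -1.57 ± 0.24) and the cell wall gene *TCH4* (-1.86 and -1.15). The Col-0 shoot libraries of *TCH4* spread from 37.3 to 189 CPM at 28 °C, against 230 to 261 CPM at 22 °C. The list's median was -0.05 in the *hy5-215* shoot and -0.28 in the Col-0 shoot. In the *hy5-215* root 0 of 16 tested passed with edgeR or DESeq2, 4 had an unadjusted edgeR p under 0.05, and the median was -0.05. In the Col-0 root the calls ran both ways among 15 tested, with a median of 0.08, where 2.44% of all genes passed. There *CML38* (-2.27 ± 0.32) and *CML23* (-1.09 ± 0.22) fell, and *CML42* (1.07 ± 0.29) and *CML43* (1.07 ± 0.30) rose.

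The last list held 22 other rapid stress response genes, such as WRKY and ERF factors and the zinc finger gene *SZF1*. In the shoot 15 of 20 tested fell in *hy5-215* and 15 of 20 in Col-0, with medians of -1.37 and -1.76, where 1.82% and 3.15% of all genes fell. Among them were *WRKY33* in *hy5-215* (-1.92 ± 0.15, edgeR adjusted p = 3.26e-09) and *ERF6* (-3.22 ± 0.22, adjusted p = 2.03e-11) and *WRKY40* (-2.94 ± 0.17, adjusted p = 9.65e-13) in Col-0. In the *hy5-215* root 4 of 19 rose, with a median of 0.38, where 1.11% of all genes rose. In the Col-0 root 7 of 20 fell, with a median of -0.75, where 1.49% of all genes fell. *ERF6* averaged 17.1 ± 2.02 CPM at 28 °C and 4.69 ± 2.58 CPM at 22 °C in the *hy5-215* root, and 7.53 ± 2.41 and 12.5 ± 0.956 CPM in the Col-0 root. *WRKY40* averaged 5.54 ± 2.10 and 5.52 ± 3.02 CPM in the *hy5-215* root, and 3.64 ± 1.97 and 20.6 ± 4.98 CPM in the Col-0 root. Other WRKY genes of the list differed in the Col-0 root. *WRKY18* averaged 7.01 ± 1.29 CPM there at 28 °C and 12.9 ± 4.11 CPM at 22 °C. In the *hy5-215* root it averaged 7.8 ± 2.32 and 6.41 ± 0.749 CPM. *WRKY33* and *WRKY53* had a higher mean at 28 °C in both roots. *WRKY33* averaged 44.8 ± 10.9 and 21.3 ± 4.85 CPM in the *hy5-215* root, and 19.7 ± 8.81 and 12.9 ± 5.50 CPM in the Col-0 root. For *WRKY53* these were 7.96 ± 5.58 and 1.73 ± 1.02 CPM, and 4.33 ± 2.17 and 1.46 ± 0.52 CPM. In the Col-0 root 0 of the 20 rose past both limits. The interaction of genotype and temperature in the root passed for 9 of 21, all higher in *hy5-215*, where 1.05% of all genes passed in this direction. *ERF6* was at 2.63 ± 0.44 (edgeR adjusted p = 0.000577) and *WRKY40* at 2.46 ± 0.56 (adjusted p = 0.0153). *RRTF1*, an ERF gene of early stress, had 22 to 35 counts per library in the Col-0 root at 22 °C and 0 in all 3 at 28 °C, so no fold is given. It had 0 or 1 count in every *hy5-215* root library.

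**Figure D4:**
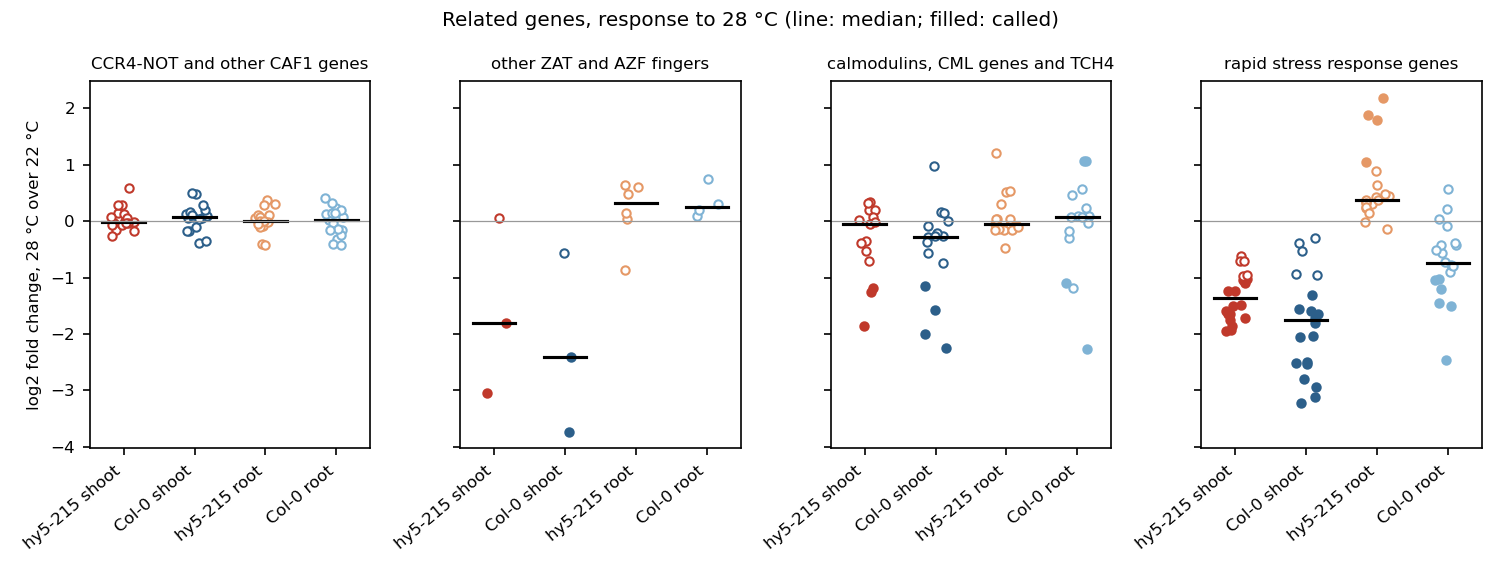
Fitted log2 fold change at 28 °C over 22 °C for the tested genes of 4 related lists, by tissue and genotype. Points are genes, filled where both limits were passed, and the black line is the median. *RRTF1* in the Col-0 root, at 0 counts at 28 °C, is left out of the points. The rapid stress response genes have medians of -1.37, -1.76, 0.38 and -0.75 in the *hy5-215* shoot, the Col-0 shoot, the *hy5-215* root and the Col-0 root.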

How the data were processed

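3′Tag-Seq libraries of shoot and root of *hy5-215* and Col-0 were analysed, 3 per group. The deposited values are whole-number counts per gene. Per the labels and methods, the authors aligned reads with HISAT2 to TAIR10 and counted them with HTSeq. Versions, strand and duplicate handling are not given in the sources used here. Counts cover tags, not independent molecules, so precision from counting is a lower limit on the error. TAIR10.1 gave names, positions and sequences for 32548 of 33977 identifiers, and the upstream region of *CAF1a* is not reported here.

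Tests used edgeR 4.0.16 in R 4.3.3 (filterByExpr at 10 counts and a total of 15, TMM, quasi-likelihood F-test, Benjamini-Hochberg over all genes tested), fitted on the libraries of each comparison. The limits were an adjusted p of 0.05 and a 2-fold change, with no fold limit for interactions. The SE is the absolute log2 fold change divided by the square root of F, and is approximate. The script was tested on simulated data. Alternatives were DESeq2 1.42.0, other filters, library size alone, a joint fit, a replicate block, no fold limit and leaving out each library. Replicates of a group differed by more than counting noise (chi-square per degree of freedom 1.45 to 4.25). The floor was 3 counts per library.

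The members and lists were chosen with earlier results of these data known. Outside the members, the named genes were at most 3 per list, comparison and direction, largest change first, and the 5 genes most like *CAF1a* among those with a mean of at least 20 counts. *RRTF1* levels and the root means of *ERF6*, *WRKY40*, *WRKY18*, *WRKY33* and *WRKY53* were given after their values were seen. So were the Col-0 shoot values of *TCH4*.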

Additional observations from a re-analysis of the deposited data

Results flagged for a closer look

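A result was marked for a closer look where the responses of both genotypes, or of both tissues, differed by a test of that difference. No group held enough libraries for a test of single outlying libraries. In the root, *hy5-215* minus Col-0, the difference in log2 fold change was 3.74 for *ZAT10*, 2.68 for *CAF1b*, 2.22 for *ZAT12*, 1.66 for *TCH2* and 1.29 for *ZAT6*. For *CAF1a* it was 4.37. That difference was not tested, since the gene was chosen on it. In the shoot the same difference was 1.48 for *ZAT10*, 1.31 for *ZAT6*, 1.25 for *CAF1a* and 1.08 for *ZAT12*. Between the tissues, root minus shoot, it was 2.56 for *ZAT10*, 2.46 for *CAF1b*, 2.04 for *TCH3*, 1.87 for *TCH2*, 1.72 for *ZAT12* and 1.58 for *ZAT6* in *hy5-215*, and 2.77 for *TCH3* and 1.58 for *ZAT6* in Col-0.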

How the results depend on the processing

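Over the settings that refitted the model, 1311 of the members' log2 fold changes kept direction and call, 72 lost the call, 6 gained it and 40 changed sign. The 1311 include the *CAF1a* values given without a test, which have no call. Those were counted where the sign held and the shift was under the pooled SD of log2(CPM + 1). Members that passed numbered 1 in the *hy5-215* root with DESeq2 or a joint fit of 24 libraries and 4 with no fold limit, 4 in the shoot at 22 °C with no fold limit, 1 in the shoot at 28 °C with DESeq2, and 2 in the shoot interaction with DESeq2, against 2, 0, 2 and 4. Without any 1 library they numbered 0 to 3 in the *hy5-215* root, 0 to 4 in the shoot at 28 °C, 1 to 2 in the root at 28 °C, 0 to 4 in the shoot interaction and 3 to 5 in the root interaction.

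Values near 0 changed sign. With library size alone, *ZAT6* and *ZAT12* were at 0.03 in the *hy5-215* root, and *CAF1a* and *TCH2* at 0.03 in the Col-0 tissue interaction. With no filter, *CAF1a* and *TCH2* were at 0.02 there. Leaving out 1 library, *CAF1b* ran from -1.45 to 0.04 in the *hy5-215* shoot, -1.05 to 0.44 between genotypes in the shoot at 28 °C and -0.39 to 1.09 in the shoot interaction. *ZAT5* ran from -0.21 to 0.24 in the Col-0 shoot and -0.35 to 0.06 between genotypes in the shoot at 28 °C. In the *hy5-215* root, *ZAT6* ran from -0.12 to 0.14 and *ZAT12* from -0.11 to 0.11. *ZAT10* ran from -0.17 to 0.18 between genotypes in the shoot at 22 °C, *TCH2* from -0.23 to 0.31 in the shoot at 28 °C and -0.50 to 0.02 in the shoot interaction, and *ZAT11* from -0.57 to 0.01 in the root at 22 °C. In the Col-0 tissue interaction, *CAF1a* ran from -0.46 to 0.35, *ZAT10* from -0.24 to 1.05 and *TCH2* from -0.28 to 0.25. The cause was not tested.

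Over all genes, 169 passed the shoot interaction, against 366 with no filter, 110 with DESeq2, 100 in the joint fit and 60 to 398 without 1 library. The root interaction had 240, against 413 with no filter and 142 to 251 without 1 library, and the Col-0 root 384 against 250 to 424 and the Col-0 tissue interaction 498 against 326 to 523. With no fold limit, 920 to 3920 genes passed in the 8 comparisons of 2 groups, against 269 to 903.

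Replicate numbers did not pair the libraries in every comparison, and the main tests used no pairing. Same-numbered libraries of compared groups had correlations of -0.0815 to 0.18 over 14156 genes. In the Col-0 shoot and the *hy5-215* root all 6 correlated best with their own number. Between genotypes in the shoot at 28 °C, same-numbered libraries correlated at 0.157 for replicate 1, -0.00657 for replicate 2 and 0.18 for replicate 3. Replicate 1 of *hy5-215* with replicate 3 of Col-0 gave -0.157, and replicate 3 with replicate 1 gave -0.183. A shared order of these shoot libraries is thus possible. With a replicate block, no count of members changed, *TCH2* turned to 0.02 in the Col-0 tissue interaction, and 266 genes passed the shoot interaction. Depth limits *CAF1b*, at 5 to 22.3 counts on average per group, and *ZAT11*, at 0 to 29.3.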
